A study of Mus musculus with 18 samples.

Results

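A set of 10 chains of cytokine receptors were followed through 3 stages of the mouse B cell lineage. The chains were those of the receptors for IL-10 (Il10ra and Il10rb), IL-6 (Il6ra and Il6st), IL-21 (Il21r), IL-4 and IL-13 (Il4ra and Il13ra1), IL-9 (Il9r) and interferon-gamma (Ifngr1), with the common gamma chain Il2rg. They were chosen by name, as 10 of the 21761 genes of the expression table. Il10ra was chosen because the study named it as a gene that differs between the genotypes in plasma cells. Its values in plasma cells are therefore given as a description without a test. All 10 genes were among the 11522 that passed the filter on low values (FPKM above 1 in at least 2 libraries).

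RNA-seq libraries were made from 3 sorted populations, to ask how loss of Dnmt3a and Dnmt3b, the enzymes that set new DNA methylation, changes gene expression along B cell differentiation. Naive B cells (nB) came from lymph nodes of unimmunized mice, phycoerythrin-specific germinal center B cells (GCB) from lymph nodes 30 days after immunization with phycoerythrin, and CD138+ plasma cells (BMPC) from bone marrow at the same time. Mice of both genotypes carried floxed alleles of both enzymes (Dnmt3afl/flDnmt3bfl/fl). Dnmt3-deficient mice also carried 1 copy of a Cre that is active in B cells only, and Dnmt3-sufficient mice carried none. Each of the 6 groups had 3 libraries of 5000 sorted cells, the sexes were split evenly between the genotypes, and each GCB library pooled a pair of mice. Between cell types the sexes were uneven, with most nB and GCB libraries female and most BMPC libraries male. The strain was B6;129S4-Dnmt3atm3.1Enl Dnmt3btm5.1Enl/Mmnc by the sample labels, while the methods name the floxed Dnmt3a allele Dnmt3atm3.2Enl, and the mice were 8 to 12 weeks old when the experiments began.

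A cytokine receptor usually joins a ligand-specific chain with a chain that several receptors share. The tails of the chains hold JAK kinases, which phosphorylate STAT factors when the cytokine binds, and the STAT factors then move to the nucleus and switch on target genes. IL-4 acts mainly through Stat6, and IL-6, IL-10 and IL-21 act mainly through Stat3. In B cells, IL-4 and IL-21 from follicular helper T cells drive the germinal center reaction and class switching, and IL-6 is known as a support factor of plasma cells.

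All 10 genes were placed on the mouse genome build the authors used, NCBIM37 (mm9). Il4ra, at chr7:132695785-132722986 on the plus strand, and Il21r, at chr7:132746943-132777084 on the same strand, are neighbours with 23956 bases and 0 other annotated genes between them. Il13ra1 lies at chrX:33652105-33711254 on the plus strand and Il2rg at chrX:98459717-98463594 on the minus strand. Il10ra lies at chr9:45061922-45077232 on the minus strand and Il10rb at chr16:91406409-91426074 on the plus strand. The others are Il6ra at chr3:89673246-89717084 and Il9r at chr11:32087541-32100279, both on the minus strand, with Ifngr1 at chr10:19311755-19330035 and Il6st at chr13:113265216-113297068 on the plus strand. An annotated model of Ifnar2 reaches across Il10rb, and Gm20489 spans Il2rg, both on the same strand as the chain. Reads in these stretches may have been counted for either gene or for neither. The values of Il10rb, Ifnar2 and Il2rg are uncertain to that extent.

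Upstream sequence is shown for 3 of the chains, since Il4ra and Il21r varied together over the 18 libraries, both lowest in BMPC, while Il13ra1 varied opposite to both. Each sequence is the 250 bases before the RefSeq transcription start in GRCm38.p6, 5′ to 3′ along the gene's own strand, with every CpG, the dinucleotide that DNA methyltransferases modify, in capitals.
Il4ra, chr7:125552021-125552270, plus strand: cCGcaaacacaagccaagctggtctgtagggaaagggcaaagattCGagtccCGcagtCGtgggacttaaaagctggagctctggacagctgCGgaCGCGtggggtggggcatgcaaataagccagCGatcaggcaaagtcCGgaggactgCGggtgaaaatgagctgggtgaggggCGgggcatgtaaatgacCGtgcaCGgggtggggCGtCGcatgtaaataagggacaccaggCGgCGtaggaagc
Il21r, chr7:125603179-125603428, plus strand: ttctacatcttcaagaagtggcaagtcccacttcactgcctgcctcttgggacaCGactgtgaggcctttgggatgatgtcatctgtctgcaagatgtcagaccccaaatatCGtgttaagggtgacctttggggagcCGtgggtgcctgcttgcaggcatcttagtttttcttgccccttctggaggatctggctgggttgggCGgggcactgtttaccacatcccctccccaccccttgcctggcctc
Il13ra1, chrX:36111858-36112107, plus strand: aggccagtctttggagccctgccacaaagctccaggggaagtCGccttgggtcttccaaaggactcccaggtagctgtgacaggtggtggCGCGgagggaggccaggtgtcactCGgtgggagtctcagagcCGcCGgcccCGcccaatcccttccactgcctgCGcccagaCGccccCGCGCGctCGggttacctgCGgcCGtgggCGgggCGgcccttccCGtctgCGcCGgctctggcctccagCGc
Il4ra held 17 CpG, Il21r 4 and Il13ra1 21, against a median of 6 over all 32851 promoters of that length. RefSeq promoters were matched for 8 of the 10 chains, and among these 8 the number of CpG ran from 3 in Il2rg to 26 in Il6st. The sequences were also searched on both strands for GAS (TTCNNNGAA), the element bound by most STAT dimers and for the Stat6 site, which has 1 more base between the same ends. Neither was in the 250 bases of any of the 8 chains, and 7.02% and 5.85% of all promoters held them. The E-box CANNTG was in 6 of the 8, in all but Il2rg and Ifngr1, against 66.2% of all promoters. The matches describe letters in a window and no binding was measured in these libraries.

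BMPC libraries were the shallowest, with 1355231 to 3803197 reads on genes. The depth was 6692516 to 8987922 reads for nB and 7644544 to 8903872 for GCB, and 1 read thus weighs more in BMPC. FPKM scales the reads of a gene by its exon length and by the reads of the library, and levels of different genes are compared on this scale only. Summed levels of 7 nB markers were 3224 to 4058 FPKM in nB and 109 to 218 in BMPC, with Cr2 at 0 in all BMPC libraries. Summed levels of 6 GCB markers were 726 to 949 FPKM in GCB, 25.7 to 73.6 in nB and 17.4 to 72.8 in BMPC. Summed levels of 7 BMPC markers were 18915 to 29493 FPKM in sufficient and 33952 to 51504 in deficient BMPC. They were 312 to 511 FPKM in nB and 1173 to 1520 in GCB. Of these 7, 6 rose from nB to BMPC in each genotype, where 9.74% and 6.85% of all genes did. In each genotype 1 did not pass the test used below (log2(FPKM + 1) changes of +0.69 and -1.55). Sdc1, the gene of CD138, by which BMPC were sorted, rose from nB to BMPC in both genotypes (+4.87 and +5.61 on that scale). Levels of Dnmt3a and Dnmt3b in nB overlapped between the genotypes (2.35 to 5.18 FPKM in sufficient and 2.24 to 4.33 in deficient nB for Dnmt3a), but whole-gene values include exons outside the deleted part and do not check the deletion. In bulk libraries, fewer cells of a type and less RNA per cell cannot be told apart.

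**Figure D1:**
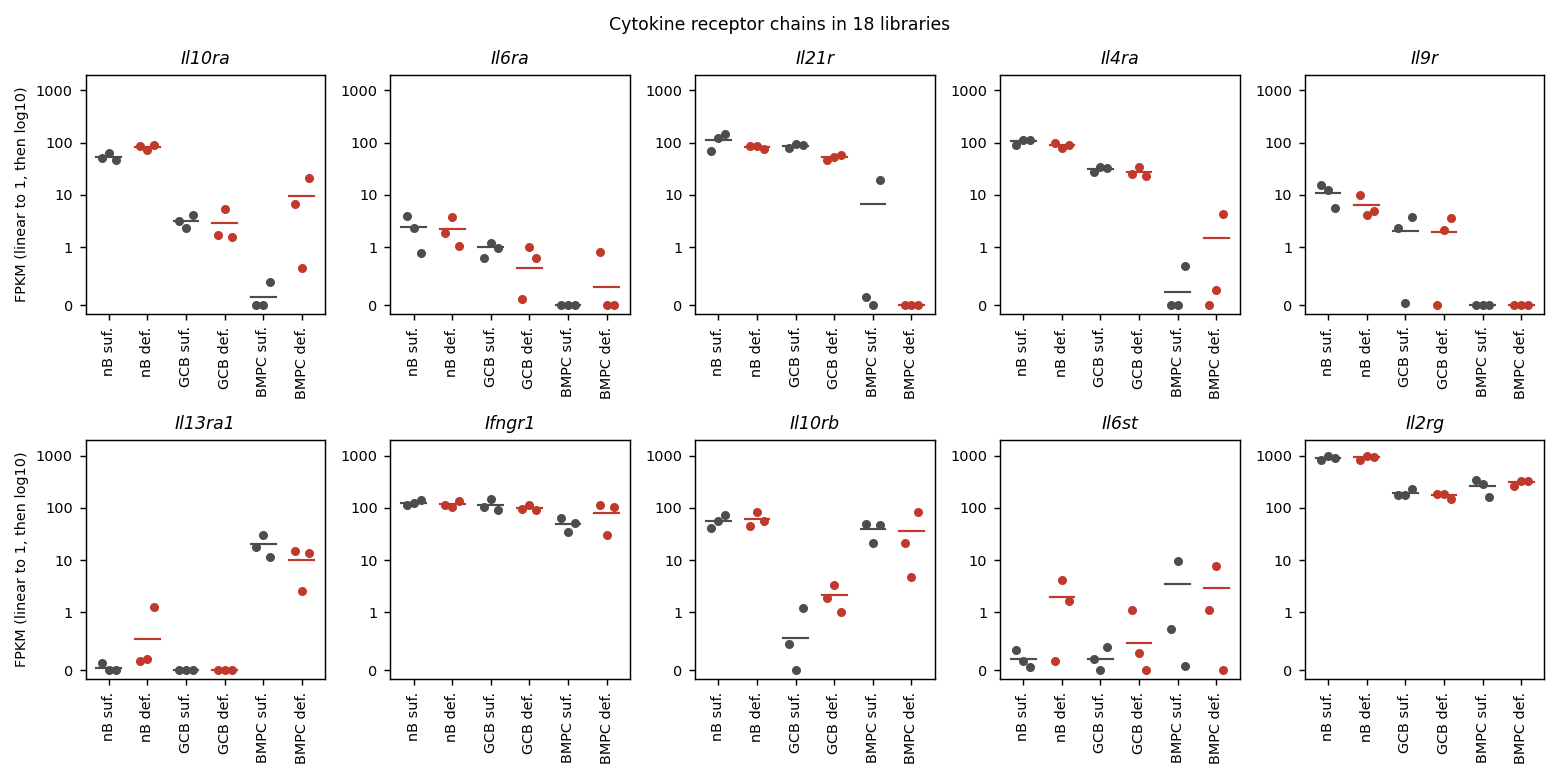
FPKM (linear from 0 to 1, log10 above) of each chain in the 18 libraries, 3 points per group with the mean as a line, grey for Dnmt3-sufficient and red for Dnmt3-deficient. Il2rg is the highest chain in every group, Il13ra1 reaches 2.60 FPKM or more only in BMPC, and Il21r and Il4ra are near 0 in most BMPC libraries.

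In naive B cells, Il2rg, the signalling chain shared by the receptors for IL-2, IL-4, IL-7, IL-9, IL-15 and IL-21, was the highest chain, at 906 ± 81.2 FPKM in sufficient and 919 ± 90.7 in deficient mice (SD, n = 3). Ifngr1 at 124 ± 13.8, Il21r at 113 ± 40.8 and Il4ra at 105 ± 12.1 FPKM followed in sufficient nB, and their libraries overlapped in that order. Il10rb at 56.9 ± 16.4 and Il10ra at 54.0 ± 9.08 FPKM overlapped each other and had lower means. Il9r at 11.0 ± 5.01 and Il6ra at 2.39 ± 1.54 FPKM came next, and Il6st and Il13ra1 were under 1 FPKM in every sufficient nB library. In deficient nB, Il2rg and Ifngr1 were again the highest, and Il10ra at 82.9 ± 8.84 FPKM overlapped Il4ra and Il21r.

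Summed over the 10 chains, nB libraries held 1217 to 1488 FPKM, GCB libraries 325 to 451 and BMPC libraries 292 to 555. Il2rg made up 66.1% ± 2.95 of the sum in sufficient nB, 45.0% ± 5.89 in sufficient GCB and 67.6% ± 10.5 in sufficient BMPC. Ifngr1 took 9.03% ± 0.80, 26.3% ± 6.05 and 13.2% ± 4.12 in the same order. The makeup of the chains in GCB thus leaned to Ifngr1 and Il21r, the latter at 19.8% ± 0.42 there. These are shares of a smaller sum. In sufficient mice neither mean rose from nB to GCB (Ifngr1 124 to 114 FPKM, Il21r 113 to 85.9). In nB, Il2rg stood 3.37 to 5.82 times as high as Il4ra, Il21r and Il9r together, the ligand-specific partners among these chains. In GCB the ratio was 1.40 to 2.68, below every nB library. In BMPC these partners summed to 0 to 20.2 FPKM beside an Il2rg of 162 to 346.

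**Figure D2:**
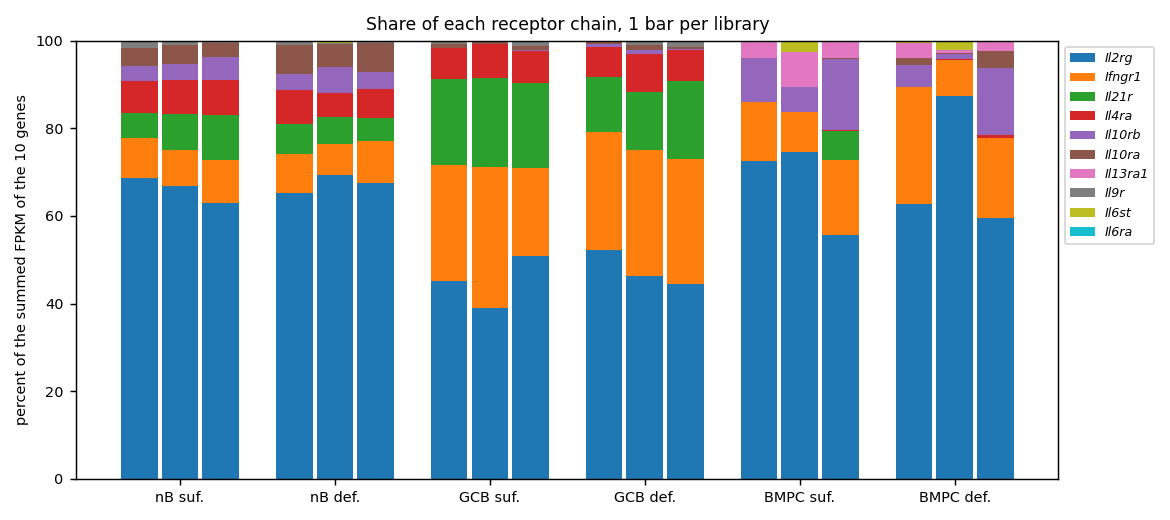
Percent of the summed FPKM of the 10 chains, 1 bar per library, stacked by gene. Il2rg is the largest block in every library, Ifngr1 and Il21r widen in GCB, and the blocks of Il21r and Il4ra are almost gone in BMPC while Il13ra1 and Il10rb take a visible share in sufficient BMPC.

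From naive to germinal center B cells, 5 of the 10 chains fell in sufficient and 4 of 10 in deficient mice, and 0 rose (limma, called where the Benjamini-Hochberg adjusted p did not exceed 0.05 and log2(FPKM + 1) moved by 1 or more). Over all 11522 genes tested, 14.2% were called in sufficient mice (7.22% higher, 6.93% lower) and 12.9% in deficient mice (6.31% higher, 6.61% lower). Libraries did not overlap for 45.6% and 45.3% of all genes, so a lack of overlap alone says little between cell types. The median change of the chains was -1.18 and -1.22, against -0.11 and -0.13 over all genes. The chains that fell in both were Il10ra, Il10rb, Il4ra and Il2rg, and Il9r passed the test in sufficient mice. The difference of the change between genotypes was called for 0 of 10 chains (0 at an unadjusted p of 0.05, and 0 with voom) and for 0% of all genes (204 at an unadjusted p of 0.05, and 0 called with voom).

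Il10ra, the chain that binds IL-10, was at 50.3, 64.3 and 47.3 FPKM in sufficient nB and at 3.18, 2.32 and 4.06 in sufficient GCB. Deficient nB held 84.2, 73.4 and 91.0 FPKM and deficient GCB 1.68, 5.45 and 1.59. Every GCB library was thus under every nB library. The fall was 16.9-fold in sufficient mice (-3.72 ± 0.69, SE, adjusted p = 0.00109) and 28.5-fold in deficient mice (-4.56, adjusted p = 0.000198), or 50.7-fold without GCB replicate 2.

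Il10rb, the second chain of the IL-10 receptor and a part of several related receptors, fell with it. Sufficient nB libraries were at 40.9, 56.2 and 73.7 FPKM and sufficient GCB libraries at 0.46, 0 and 1.23. Deficient nB had 45.4, 83.4 and 56.4 FPKM, against 1.92, 3.37 and 1.01 for deficient GCB. The groups lay far apart, with changes of -5.25 ± 0.72 (adjusted p = 7.59e-05) and -4.36 ± 0.72 (adjusted p = 0.000472) by limma.

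Il2rg stood at 836, 995 and 889 FPKM in sufficient nB and at 178, 176 and 229 in sufficient GCB. Deficient nB held 816, 990 and 950 FPKM, and deficient GCB 188, 186 and 144. The shared chain fell 4.66-fold (-2.22 ± 0.22, adjusted p = 3.10e-06) and 5.32-fold (-2.41 ± 0.22, adjusted p = 1.38e-06), with no overlap of libraries. It was still the highest chain in GCB.

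Il4ra, which binds IL-4, was at 90.9, 113 and 111 FPKM in sufficient nB and at 27.3, 34.5 and 32.7 in sufficient GCB. Deficient nB had 97.0, 78.5 and 91.3 FPKM, and deficient GCB had 24.6, 34.6 and 23.1. The libraries did not overlap, and the change was -1.70 ± 0.51 (3.33-fold lower, adjusted p = 0.0299) and -1.68 ± 0.51 (3.24-fold lower, adjusted p = 0.0342). Both calls are close to the threshold. Leaving out any 1 of the 6 libraries compared gave adjusted p-values of 0.0592 to 0.105 in sufficient and 0.0535 to 0.12 in deficient mice. A pseudocount of 0.1 gave 0.379 and 0.407. Each call held under 7 of 15 alternatives, among them the compared groups alone, voom and median of ratios scaling, and 0 reversed. The spread in the main fit includes BMPC, where Il4ra was at 0 to 4.20 FPKM.

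Il21r and Ifngr1 were not called in either genotype. Il21r, the IL-21 chain, was at 68.2, 124 and 148 FPKM in sufficient nB and at 77.9, 91.7 and 88.0 in sufficient GCB, which overlap. Deficient nB had 84.7, 87.3 and 74.4 FPKM and deficient GCB 45.5, 53.0 and 57.6, without overlap, and neither change was called (-0.33, 95% confidence interval -1.97 to 1.32, and -0.65, -2.30 to 0.99). Ifngr1, the chain that binds interferon-gamma, was at 111, 122 and 138 FPKM in sufficient nB and at 105, 145 and 90.8 in sufficient GCB. Its deficient libraries had 111, 103 and 136 FPKM for nB and 96.4, 115 and 92.8 for GCB, and neither change was called (-0.14, -0.97 to 0.68, and -0.20, -1.02 to 0.63). Ifngr2, the partner that Ifngr1 needs to signal, fell in both genotypes (-2.85 ± 0.53, adjusted p = 0.00126, and -2.62 ± 0.53, adjusted p = 0.00269), from 46.3 ± 6.92 to 5.75 ± 2.1 FPKM in sufficient mice.

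The low chains gave less. Il9r, the IL-9 chain, was at 15.4, 12.1 and 5.53 FPKM in sufficient nB and at 2.32, 0.04 and 3.70 in GCB (-2.14 ± 0.61, adjusted p = 0.0234). That call was lost without nB replicate 1 or 2 or GCB replicate 2 (adjusted p-values up to 0.145, change as small as -1.50), and with no filter on low values, a pseudocount of 0.1, voom or the groups compared alone (0.0606 to 0.131). In deficient mice it went from 9.85, 4.14 and 4.89 to 0, 2.15 and 3.58 FPKM, which was not called (-1.50, adjusted p = 0.125). Il6ra, the IL-6 chain, was at 0.90 to 3.98 FPKM in nB and 0.11 to 1.21 in GCB, and Il6st, the signal-transducing chain gp130, at 0.06 to 4.19 and 0 to 1.09. Neither was called. Il13ra1, which pairs with Il4ra to bind IL-13 and IL-4, had 0 reads in all 6 GCB libraries, where 3 reads would be 0.09 to 0.11 FPKM.

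**Figure D3:**
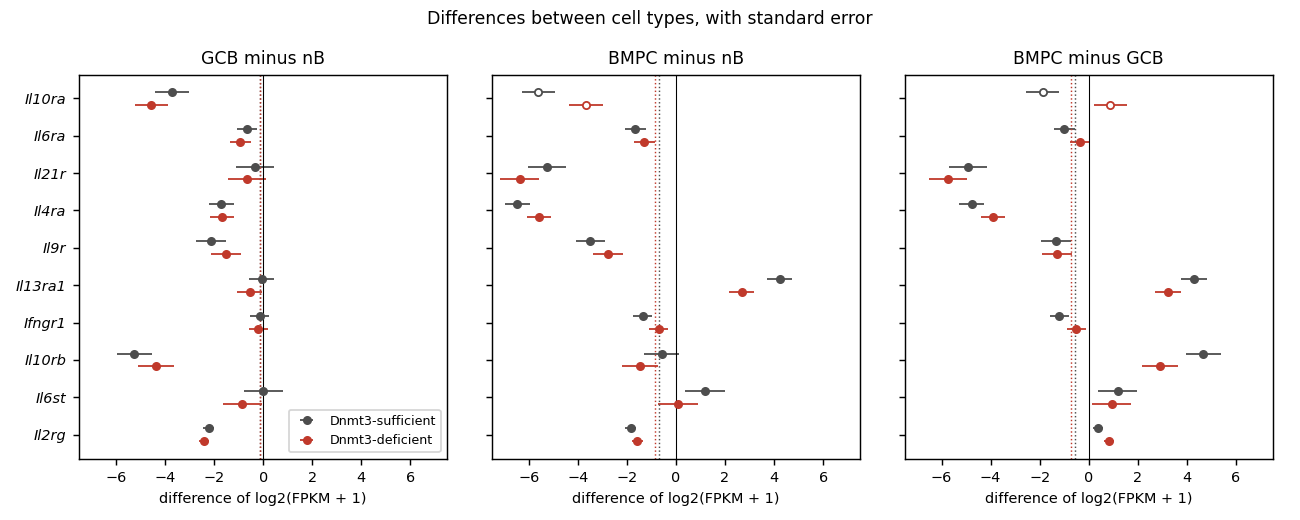
Difference of log2(FPKM + 1) between cell types for each chain, with the standard error of the limma fit, in Dnmt3-sufficient (grey) and Dnmt3-deficient (red) mice. Dotted lines are the median of all tested genes, and open points are Il10ra in comparisons with BMPC, which were not tested. Il21r, Il4ra and Il9r lie to the left and Il13ra1 to the right in BMPC minus nB, and Il10rb lies to the left in GCB minus nB and to the right in BMPC minus GCB.

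In bone marrow plasma cells, the chains for IL-4, IL-21 and IL-9 were lower than in nB, Il13ra1 was higher than in nB and GCB, and Il10rb was higher than in GCB. Without Il10ra, 6 of 9 chains fell and 1 rose against nB in sufficient mice, and 5 fell and 1 rose in deficient mice. The share of all genes called was 37.3% (27.6% lower, 9.74% higher) and 37.4% (30.6% lower, 6.85% higher). The median of all genes was itself at -0.70 and -0.84 in these comparisons, and the median of the chains at -1.66 and -1.46. Scaling by the median of ratios moved the median of all genes in deficient mice to -0.69, and changes are best read against that level. Libraries did not overlap for 44.8% and 45.7% of all genes. The 6 that fell in sufficient mice were Il6ra, Il21r, Il4ra, Il9r, Il2rg and Ifngr1, and all but Ifngr1 fell in deficient mice. Against GCB, 2 of 9 rose and 3 fell in sufficient mice and 2 rose and 2 fell in deficient mice, with 27.6% (20.9% lower, 6.67% higher) and 32.3% (26.1% lower, 6.14% higher) of all genes called and 43.3% and 44.6% without overlap. Comparisons with BMPC share nB or GCB libraries and are not independent of each other.

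Il4ra was at 0, 0 and 0.67 FPKM in sufficient BMPC and at 0, 0.26 and 4.20 in deficient BMPC, below every GCB library. Against nB the change was -6.47 ± 0.51 (adjusted p = 7.57e-08) and -5.58 ± 0.51 (adjusted p = 4.77e-07), and against GCB -4.77 (adjusted p = 3.26e-06) and -3.91 (adjusted p = 2.34e-05). The reads behind the highest library, deficient replicate 3, were 55.

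Il21r had 1, 0 and 236 reads in sufficient BMPC, which is 0.14, 0 and 19.6 FPKM, and 0 reads in all 3 deficient libraries. In deficient mice it was at least 152-fold lower than in nB, with each BMPC library set to a floor of 3 reads. The change against nB was -5.25 ± 0.78 (adjusted p = 6.46e-05) and -6.37 ± 0.78 (adjusted p = 1.05e-05), and against GCB -4.92 (adjusted p = 0.000168) and -5.72 (adjusted p = 3.70e-05). Without replicate 3 of sufficient BMPC the change against nB was -6.67. That library also held the highest sum of the 7 nB markers among BMPC (218 FPKM, against 109 to 172 in the others), and the part of this in the result was not tested.

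Over the 18 libraries, the neighbours Il4ra and Il21r had a Pearson r of log2(FPKM + 1) of 0.91, a description over libraries of 3 cell types. Both were lowest in BMPC, while from nB to GCB Il4ra was called lower and Il21r was not. The next highest r of Il4ra among the chains was 0.83, with Il9r on another chromosome. Il13ra1 ran against Il4ra and Il21r, with r of -0.88 with Il21r and -0.88 with Il4ra.

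Il13ra1 was at 17.8, 30.6 and 11.4 FPKM in sufficient BMPC and at 14.6, 2.60 and 13.5 in deficient BMPC. Naive libraries held 0.12, 0 and 0 FPKM in sufficient and 0.17, 0.19 and 1.24 in deficient mice, so every BMPC library was above every other library. In sufficient mice it was at least 188-fold above nB (+4.23 ± 0.52, adjusted p = 9.15e-06) and in deficient mice 19.2-fold (+2.68 ± 0.52, adjusted p = 0.000723), or 56.5-fold without nB replicate 3. Against GCB it was at least 203-fold and at least 106-fold higher (+4.28, adjusted p = 1.22e-05, and +3.23, adjusted p = 0.000171).

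Il10rb was at 48.4, 21.5 and 47.3 FPKM in sufficient BMPC and at 21.2, 4.68 and 84.2 in deficient BMPC. These overlap nB, with changes of -0.58 (95% confidence interval -2.1 to 0.94) and -1.46 (-2.99 to 0.06) that were not called, and lie above every GCB library. The rise over GCB was 69.1-fold in sufficient mice (+4.67 ± 0.72, adjusted p = 0.000138) and 17.5-fold in deficient mice (+2.90 ± 0.72, adjusted p = 0.00541). Without GCB replicate 3 the sufficient ratio was 169, and without BMPC replicate 3 the deficient ratio was 6.17 (+1.93). In deficient mice it missed the threshold with voom on the recovered reads (adjusted p = 0.0582) and with a fit to the compared groups alone (adjusted p = 0.103).

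Il2rg was at 346, 282 and 162 FPKM in sufficient BMPC and at 263, 326 and 330 in deficient BMPC, under every nB library. The change against nB was -1.84 ± 0.22 (3.44-fold lower, adjusted p = 7.92e-06) and -1.59 ± 0.22 (3.0-fold lower, adjusted p = 4.15e-05). Against GCB it was not called, at +0.38 in sufficient mice and at +0.83 in deficient mice, where the adjusted p was 0.00885 but the change was under 1. With median of ratios scaling it was called higher in deficient mice.

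Ifngr1 was at 64.0, 33.8 and 50.1 FPKM in sufficient BMPC and at 111, 30.6 and 102 in deficient BMPC. It fell in sufficient mice against nB (-1.35 ± 0.39, adjusted p = 0.0118) and against GCB (-1.21 ± 0.39, adjusted p = 0.0273). The latter was lost without GCB replicate 1 or 2 or BMPC replicate 2, with adjusted p-values up to 0.115, with no filter on low values (0.0641) and with median of ratios scaling (0.0511). In deficient mice neither change was called (-0.71, 95% confidence interval -1.53 to 0.12, against nB). Of the sufficient change against nB, -0.70 is the median of all genes.

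Il9r had 0 reads in all 6 BMPC libraries, where 3 reads would be 0.25 to 0.71 FPKM. It was at least 34.3-fold lower than nB in sufficient mice (adjusted p = 0.000308) and at least 10.9-fold in deficient mice (adjusted p = 0.00192, and 0.0745 with library quality weights). Il6ra had 0 reads in 5 of the 6 and 0.92 FPKM in deficient replicate 1, and was called lower than nB in both genotypes (-1.66, adjusted p = 0.00569, and -1.28, adjusted p = 0.0242). Library quality weights ended both calls (adjusted p = 0.0666 and 0.217), and the compared groups alone ended that in deficient mice (0.0828). The call in deficient mice was also lost without nB replicate 2 (-0.96) or without BMPC replicate 2 or 3 (-1.13), with adjusted p-values up to 0.109. Il6st varied more within BMPC than between cell types, at 0.71, 9.67 and 0.07 FPKM in sufficient and 1.11, 7.84 and 0 in deficient libraries, and was called in no comparison. Replicate 2 of each genotype was above every nB and GCB library for Il6st.

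Markers of other cell types were checked in all groups, although the sort left out cells with markers of myeloid and T cells. Neutrophil markers were seen for 8 of 8 genes in sufficient BMPC (526, 63.4 and 145 FPKM summed) and 4 of 8 in deficient BMPC (9.37, 582 and 535 FPKM, with Camp, Csf3r, Ltf and Elane at 0), and reached at most 0.07 FPKM in nB and GCB. Macrophage markers summed to 60.0 to 87.7 FPKM (3 of 6 seen, C1qa, Adgre1 and Fcgr1 at 0) and 98.4 to 227 FPKM (4 of 6 seen, C1qa and Fcgr1 at 0) in BMPC, 1.70 to 73.9 FPKM in nB and 11.2 to 19.7 in GCB. Erythroid markers summed to 1163 to 2206 and 160 to 806 FPKM in BMPC (all 4 genes in the table seen, of 6 listed). In nB they summed to 0.348 to 1.42 FPKM in sufficient and 22.5 to 204 in deficient mice. GCB held 0.352 to 11.1 FPKM. Early B markers summed to 341 to 630 and 308 to 625 FPKM in BMPC (6 of 6 seen), and to at most 22.5 FPKM in nB and GCB. T cell markers summed to 72.5 to 204 and 120 to 218 FPKM in BMPC (5 of 6 seen in each, Cd4 or Cd8a at 0), and to 58.8 to 153 FPKM in nB and GCB. Their part in the levels of Il13ra1, Il10rb, Ifngr1 and Il6st in BMPC was not tested.

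**Figure D4:**
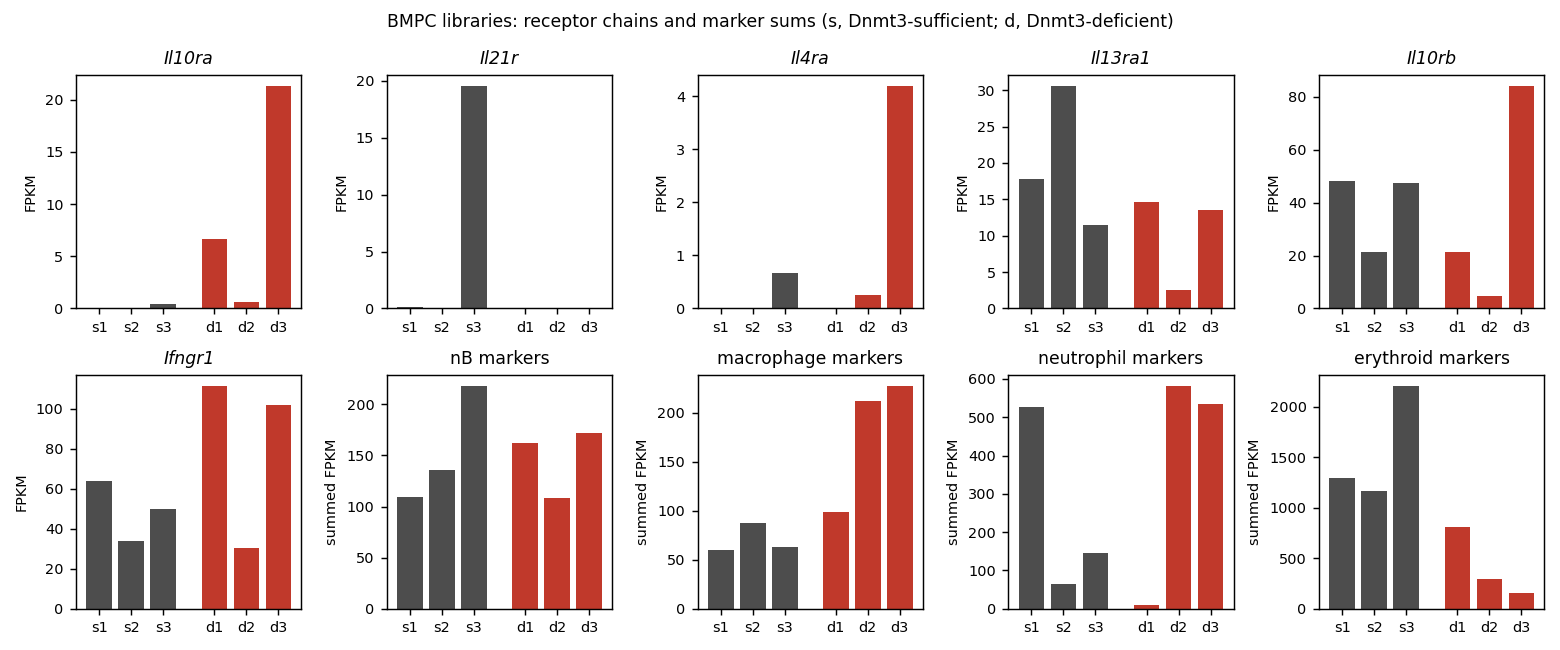
Bars give the FPKM of 6 chains and the summed FPKM of 4 marker lists in each BMPC library (s1 to s3 sufficient, d1 to d3 deficient), each panel on its own axis from 0. Il10ra and Il4ra are highest in d3, Il21r in s3, and the neutrophil sum is lowest in d1.

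Between the genotypes, no chain passed the test in nB or GCB. In nB 0 of 10 chains were called, and 0.0521% of all genes were, all of them higher (0% lower). Other scales split the calls in nB otherwise: voom called 6 genes higher and 3 lower, and the pseudocount of 0.1 gave 1 higher and 2 lower. In GCB 0 of 10 chains and 0% of all genes were called (0 chains at an unadjusted p of 0.05 in either, and 0 with voom, while 312 and 124 of the 11522 genes had such a p, and voom called 1 gene higher and 1 lower in GCB). In nB, 2 of 10 chains had libraries that did not overlap, Il10ra and the nearly absent Il13ra1, both higher in deficient mice, against 8.84% of all genes. The difference of Il10ra there was +0.62 (95% confidence interval -0.83 to 2.07). In GCB, 1 of 10 did not overlap, Il21r, at 52.0 ± 6.11 FPKM in deficient against 85.9 ± 7.13 in sufficient mice, against 10.6% of all genes (-0.72, -2.36 to 0.93). The narrowest intervals were those of Il2rg, +0.02 (-0.45 to 0.49) in nB and -0.17 (-0.64 to 0.30) in GCB. The widest were those of Il6st, +1.08 (-0.62 to 2.78) in nB and +0.23 (-1.47 to 1.93) in GCB, and differences within these bounds cannot be told from 0 here.

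In BMPC, Il10ra, the chain chosen for this difference, had 0, 0 and 5 reads in sufficient libraries (0, 0 and 0.39 FPKM) and 38, 3 and 169 reads in deficient libraries (6.66, 0.63 and 21.4 FPKM). The deficient libraries were higher without overlap, but they spread widely, and replicate 2 had 3 reads. The difference was +2.55 (SE 0.69, described without a test), and +1.66 without deficient replicate 3. Deficient BMPC stayed under nB of the same genotype, 8.68-fold on the means (22.7-fold without BMPC replicate 3), and 2 of 3 libraries were above every GCB library. The nB marker sums of the deficient libraries were 162, 109 and 172 FPKM, against 110, 135 and 218 in sufficient libraries, and the macrophage sums 98.4, 212 and 227 against 60.0, 87.7 and 63.5. The BMPC marker sums were 42996, 51504 and 33952 FPKM in deficient against 29493, 23872 and 18915 in sufficient libraries, without overlap. Single BMPC markers went both ways between the genotypes, from -2.45 to +1.84 with a median of +0.62. Of these 7 markers 0 were called (3 at an unadjusted p of 0.05). The part of these marker sums in the level of Il10ra was not tested.

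Of the other 9 chains, 0 were called between the genotypes in BMPC (0 at an unadjusted p of 0.05, and 0 with voom), where 3.98% of all genes were (1.34% higher, 2.65% lower). Of the genes called, 33.6% were higher, and 45.5% after scaling by the median of ratios. The libraries of 0 of the 9 chains lay apart, against 10.3% of all genes. The chain that binds with Il10ra, Il10rb, differed by -0.77 (95% confidence interval -2.30 to 0.75). The widest differences were those of Il21r (-1.52, -3.16 to 0.13) and Il13ra1 (-1.06, -2.15 to 0.03), and Il4ra was at +0.66 (-0.41 to 1.73). Ifngr1 was at +0.55 (-0.27 to 1.38) and was called without deficient replicate 2 (+1.14, adjusted p = 0.0250), the library with the lowest Ifngr1. The genotype difference in BMPC minus that in nB was called for 0 of 9 chains (1 at an unadjusted p of 0.05, Il13ra1 at -1.55 with an adjusted p of 0.414, and 0 with voom) and for 0.555% of all genes (0.165% higher, 0.391% lower).

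**Figure D5:**
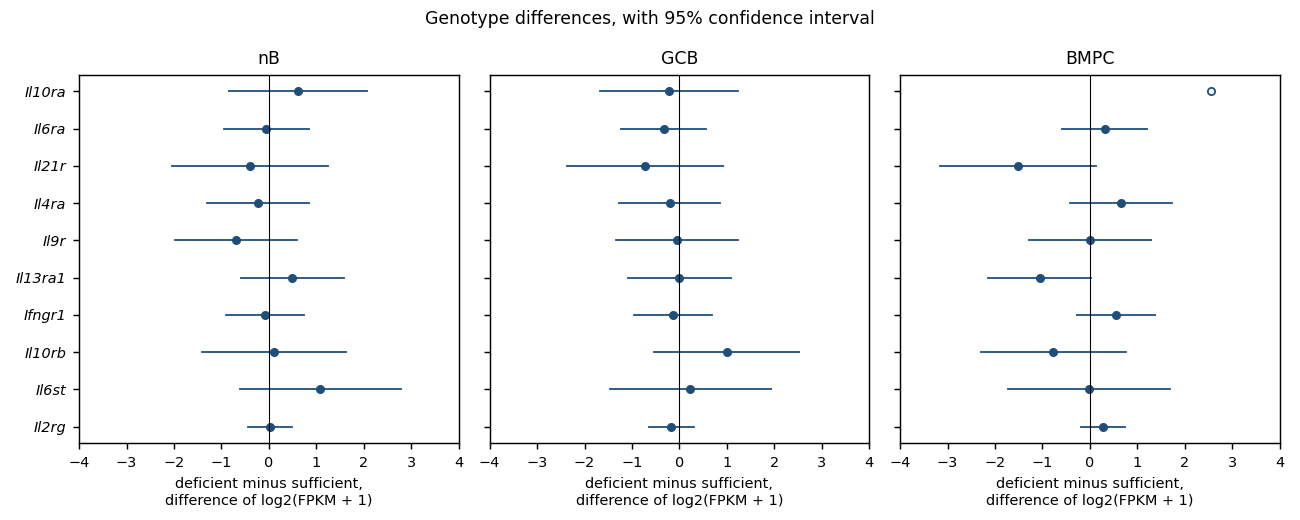
Dnmt3-deficient minus Dnmt3-sufficient difference of log2(FPKM + 1) for each chain in nB, GCB and BMPC, with the 95% confidence interval of the limma fit. Every interval covers 0, and the open point, Il10ra in BMPC at +2.55, has no interval because that gene was chosen for this difference.

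Genes whose pattern was most like that of Il10ra, by Pearson r of log2(FPKM + 1) over the 18 libraries among 6975 genes, were Fam65b (0.96), Cd38 (0.94), Mapk11 (0.93), Add3 (0.93) and H2-K2 (0.92). Cd38, a surface enzyme of B cells, had a mean of 170 FPKM in sufficient and 158 in deficient nB. GCB means were 4.39 and 5.20 FPKM, and BMPC means 3.29 and 14.9. They were picked for this likeness, BMPC libraries included.

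Among 34 other cytokine receptor genes, 24 were tested. From nB to GCB 9 fell in sufficient and 11 in deficient mice, 9 of them in both, and 0 rose. Of all genes, 6.93% and 6.61% were lower there and 7.22% and 6.31% higher. The IL-27 chain Il27ra went from 69.3 ± 17.5 to 3.37 ± 3.46 FPKM in sufficient mice (-4.35, adjusted p = 0.000972). The IL-5 chain Il5ra and the type I interferon chain Ifnar2 fell with it (-3.55 and -2.90). A model of Ifnar2 reaches across Il10rb, so the fall of Ifnar2 may not be separate from that of Il10rb. In BMPC against nB, 11 fell and 3 rose in sufficient mice and 11 fell and 1 rose in deficient mice, with 9 lower and 1 higher in both. Of all genes, 27.6% and 30.6% were lower there and 9.74% and 6.85% higher. Il27ra (-5.35 and -4.43) and the TGF-beta chain Tgfbr2 (-4.11 and -4.44) fell most, with Il17ra (-2.01 and -3.77) and Il5ra (-3.30 and -2.39). Il5ra varied widely, at 30.1 ± 28.6 FPKM in sufficient nB and 5.99 ± 9.67 in deficient BMPC. Its call in deficient mice was close to the threshold (adjusted p = 0.0468). The gene that rose in both was Il7r, the IL-7 receptor of early B and T cells, named after its values were seen, at 7.42 to 31.6 and 7.56 to 36.0 FPKM in BMPC. The early B and T cell marker sums in BMPC stand above. Between the genotypes in BMPC 1 of 24 was called, a share near the 3.98% of all genes. It was Csf2rb, the shared chain of the IL-3, IL-5 and GM-CSF receptors, also named after its values were seen. It had 0.26, 0.34 and 0.21 FPKM in sufficient and 7.67, 1.93 and 20.4 in deficient BMPC (+2.69, adjusted p = 0.0273).

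Downstream of the receptors, some JAK and STAT genes were lower in BMPC than in nB, where 27.6% of all genes were lower in sufficient and 30.6% in deficient mice. Of 4 JAK genes, 2 fell against nB in sufficient and 3 in deficient mice, with Jak1 at -2.53 (adjusted p = 0.000114) and -3.18 (adjusted p = 1.35e-05) and Jak3, the kinase bound by Il2rg, at -2.35 and -2.44. Of 7 STAT genes, 5 fell in each genotype and 0 rose. Stat6, the factor of the IL-4 receptor, had 173 ± 49.4 FPKM in sufficient nB, against 50.7 ± 2.96 for GCB and 10.4 ± 11.3 for BMPC (-4.75, adjusted p = 0.000948, BMPC against nB). Stat2 and Stat4 fell by 3.95 and 4.16 on the log2 scale in sufficient mice. From nB to GCB, 1 JAK gene fell in sufficient and 0 in deficient mice (2 at an unadjusted p of 0.05), and 2 and 1 STAT genes fell, Stat4 in both (-3.84 and -3.76). Of all genes, 6.93% and 6.61% were lower in that comparison.

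Of 15 inhibitors of this signalling, 14 were tested. Against nB, 5 fell and 1 rose in sufficient BMPC, and 6 and 1 in deficient BMPC. These are near the shares of all genes (27.6% and 30.6% lower, 9.74% and 6.85% higher). Ptpn6, the phosphatase SHP-1, went from 962 ± 179 to 51.4 ± 8.35 FPKM in sufficient mice (-4.19, adjusted p = 1.53e-07) and fell by 3.51 on the log2 scale in deficient mice. Pias3, an inhibitor of Stat3, was at 0 in sufficient BMPC (-4.83 and -4.17). In GCB 2 and 3 inhibitors fell, among them Socs5 (-2.61 and -2.60) and Pias3 (-2.24 and -2.08), against 6.93% and 6.61% of all genes. Between the genotypes in BMPC 1 of 14 was called, against 3.98% of all genes. It was Pias1, named after its values were seen, at 10.6, 17.8 and 7.84 FPKM in sufficient and 21.3, 32.5 and 55.8 in deficient BMPC (+1.49, adjusted p = 0.0327).

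Of 10 genes known as targets of these cytokines, 4 fell from nB to GCB in each genotype, where 6.93% and 6.61% of all genes did. Fcer2a, the IgE receptor CD23 that IL-4 induces, is also one of the nB markers. It went from 653 ± 105 to 55.2 ± 14.6 FPKM in sufficient mice (-3.56, adjusted p = 0.000443) and to 2.27 ± 3.93 in BMPC (-8.35, adjusted p = 2.20e-08). Il4i1, also induced by IL-4, was at -1.88 and -1.92 in GCB, and Irf1, a target of interferon-gamma, at -2.06 and -1.69. In BMPC 4 and 5 fell and 3 rose in each genotype. Of all genes, 27.6% and 30.6% were lower there and 9.74% and 6.85% higher. Prdm1, which encodes the plasma cell factor Blimp-1 and is also one of the BMPC markers, rose by 2.29 and 4.22 on the log2 scale, and the kinase gene Pim1 by 2.18 and 3.20. Pim1 varied widely in sufficient BMPC, at 45.7 ± 55.8 FPKM (adjusted p = 0.0254). Bcl6, the germinal center repressor and also one of the GCB markers, fell by 4.75 and 4.63.

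Of 15 cytokine genes, 5 were tested. Il12a fell from nB to GCB (-4.59, adjusted p = 0.00968, and -3.92, adjusted p = 0.0269). Against nB, 0 of the 5 changed in both genotypes in BMPC. Il12a was at 94.3 ± 35.1 FPKM in sufficient and 49.4 ± 66.7 in deficient BMPC, against 36.3 ± 15.6 and 25.8 ± 9.35 in nB. Il10, the ligand of Il10ra, named after its values were seen, had 0 reads in all 6 nB libraries, 1.72, 6.31 and 1.00 FPKM in sufficient and 1.65, 0.38 and 1.74 in deficient GCB. In BMPC it was at 22.0, 1.21 and 0 FPKM in sufficient and 22.5, 49.2 and 0.68 in deficient libraries. It was called against nB in deficient mice (+3.65 ± 1.08, adjusted p = 0.0139) and not in sufficient mice. The deficient library with the highest Il10ra, replicate 3, had the lowest Il10.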

How the data were processed

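RNA of 5000 sorted cells was amplified as cDNA and sequenced in 18 libraries, 3 in each of 6 groups that the labels give. The authors mapped reads to mm9 with TopHat, keeping single hits, counted them on exons of UCSC KnownGenes with summarizeOverlaps and scaled them to the deposited FPKM, relative to exon length and the reads counted per library. Immunoglobulin heavy and kappa chain genes are not analysed here. Whether strand was used is not stated. The submitters' processing notes name edgeR 3.12.1 and R 3.2.2. The table also holds fold changes, p-values and adjusted p-values of the authors' own comparisons, which were not used, and 0 columns that belong to no sample. The deposited exon lengths, in bases, turned FPKM into whole reads for 100% of values (tolerance 0.01).

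Values of log2(FPKM + 1) were fitted with limma 3.58.1 in R 4.3.3, with 1 mean per group over 18 libraries and an intensity trend, two-sided, and adjusted by Benjamini-Hochberg over the 11522 genes that had 2 or more libraries with an FPKM above 1. This scale understates the change of low genes. A gene was called where its adjusted p did not exceed 0.05 and it moved by 1 or more. The p-values measure the spread between these libraries, taken as 1 value per gene over all 6 groups, and GCB libraries are pools of mice. A floor of 3 reads gave lower bounds of fold changes, which cover counting error only, since amplified reads are not independent molecules. On simulated data 97% of 200 genes changed 8-fold were recovered (GCB against nB, sufficient, 10874 genes tested). The changed genes were drawn from genes with many reads, and all groups had the same spread. This share therefore does not cover the low chains or comparisons with BMPC.

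The chains and lists were chosen with earlier results of these data known. All chains are named. From each pathway list, up to 4 genes called the same way in both genotypes, by mean absolute change, could be named for GCB and for BMPC against nB, besides the 5 genes most like Il10ra by Pearson r (mean FPKM of at least 5). The gene lists were other cytokine receptors, JAK kinases, STAT factors, signalling inhibitors, cytokine targets, cytokines and cell type markers. Promoters came from RefSeq (GRCm38.p6) and positions from GENCODE on NCBIM37. Alternatives changed 1 choice at a time. The scale used a pseudocount of 0.1 or median of ratios scaling, the filter was dropped or raised to 3 or more libraries with an FPKM above 3, and the threshold was set to 0.01. The model took the compared groups alone, sex as a term, library quality weights, voom on the recovered reads, or a replicate block in GCB, and each library was left out in turn. Ratios of mean FPKM with each library left out were added after the data were seen.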

Additional observations from a re-analysis of the deposited data

How the results depend on the processing

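Of 463 values of 31 called changes of chains under the alternatives, 422 kept their call, 41 kept their direction but missed the threshold and 0 reversed. The number of chains called from nB to GCB in sufficient mice, 5, was 3 with a pseudocount of 0.1 and 3 at an adjusted p of 0.01, and 3 to 4 when a library was left out (3 without nB replicate 1, nB replicate 2 or GCB replicate 2). The number called between the genotypes in BMPC, 0, was 0 to 1 (1 without deficient replicate 2). Scalings that weigh low values more moved the median of all genes in BMPC against nB, sufficient, from -0.70 to -1.31 (pseudocount 0.1) and -1.26 (voom). The described difference of Il10ra in BMPC was 2.55, was 4.80 with a pseudocount of 0.1, and was 1.66 to 3.55 when a library was left out. No pairing was seen between the sufficient and deficient GCB libraries that share a label (correlations of deviations -8.06e-05, -0.017 and 0.026). Not every library correlated best with its own label. With 3 libraries per group this check cannot exclude a pairing. With these labels as a replicate block in GCB, 0 chains and 0 genes were called, as without it. Depth limits BMPC most: 3 reads there equal up to 1.05 FPKM (Ifngr1), so chains at 0 may be present below that level.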
